A study of Homo sapiens with 4 samples.

Results

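The 10 genes described here act in the uptake, activation and breakdown of decitabine (DAC) and in deoxynucleotide supply, and were followed by RNA sequencing in 2 human cancer cell lines. They are SLC29A1, SLC29A2, DCK, CDA, DCTD, SAMHD1, RRM1, RRM2, RRM2B and TYMS, chosen by symbol, and all 10 were found among 59533 genes with a single row. HCC1937 derives from a breast carcinoma, and THP-1 grows as monocyte-like leukaemia cells. In the labels all 4 libraries, untreated ones too, come from p53-/- cells that were infected with p53-R282W. The treated HCC1937 library came from cells given 0.3 µM DAC for 5 days, and the treated THP-1 library from cells given 5 µM for 2 days. Each was set against 1 untreated library of the same line. Dose and time differ with the line, so DAC was compared with untreated cells within each line.

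Levels are in FPKM (read fragments per kilobase of exon, relative to library size), and the depth estimated from the smallest steps in the values was 18700000 to 19600000 counted reads per library. Each group is a single library, so nothing is known of the spread between cultures, and the lines taken singly get no p-value. A difference is on log2(FPKM + 1), DAC minus untreated, and was called at 2-fold among genes with at least 1 FPKM in 1 library of the pair. Intervals beside linear ratios are exact 95% intervals (Clopper-Pearson) from estimated reads, and cover counting error only. The line labels were matched by marker genes. Of 15 epithelial markers, 15 and 14 reached 1 FPKM in DAC and untreated HCC1937, and 4 and 3 in DAC and untreated THP-1. Of 15 myeloid markers, 4 and 1 reached it in DAC and untreated HCC1937, and 15 in each THP-1 library. The summed level of the myeloid markers was 15.5 FPKM with DAC and 9.89 FPKM untreated in HCC1937, where 4 and 8 of them were listed at 0 in DAC and untreated cells, and its part in the results was not tested. Of 10 lymphoid markers 2 and 0, and of 10 fibroblast and endothelial markers 4 and 2, reached 1 FPKM in DAC and untreated HCC1937. In DAC and untreated THP-1 these counts were 1 and 1 for lymphoid, and 3 and 1 for fibroblast and endothelial markers. Of all genes, 13673 and 11909 reached 1 FPKM in DAC and untreated HCC1937, and 11924 and 11608 in DAC and untreated THP-1. The median difference of all kept genes was 0.19 in HCC1937 and 0.07 in THP-1, against which the values below are to be read.

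Decitabine is a deoxycytidine analogue that must enter the cell and be phosphorylated before DNA polymerases can build it into DNA, where it traps DNA methyltransferases. Equilibrative nucleoside transporters carry it across the membrane, deoxycytidine kinase adds the first phosphate, and cytidine deaminase inactivates the free nucleoside. The triphosphate competes with the cell's own dCTP, so the enzymes that make or destroy deoxynucleotides bear on how much drug is incorporated. Low deoxycytidine kinase and high cytidine deaminase are known from leukaemia cells to go with resistance to cytidine analogues.

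SLC29A1, the main equilibrative nucleoside transporter of the plasma membrane (ENSG00000112759.17, chr6:44219505-44234151), was the only member of the set past 2-fold in either line. It stood at 18.96 FPKM in the DAC library and 8.52 FPKM in the untreated library of HCC1937. The HCC1937 libraries lay well apart, at 2.23-fold with a counting interval of 2.04 to 2.44, and the log2 difference was 1.07. It was below 2-fold when libraries were scaled by median of ratios, at 0.87, or by upper quartile, at 0.78, and with a pseudocount of 10, at 0.64. In HCC1937, 10.3% of 14058 kept genes were at least 2-fold higher with DAC, so 1 of 10 members is near the background, and 9.03% of kept genes had a larger difference than SLC29A1. In THP-1, SLC29A1 stood at 86.17 FPKM with DAC and 77.25 FPKM untreated, 1.12-fold with an interval of 1.07 to 1.17. Since RNA was taken from whole cultures, a gene used by more cells and more RNA of it per cell cannot be told apart.

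SLC29A2, the second equilibrative carrier of this family and the less used for cytidine analogues (ENSG00000174669.11, chr11:66362521-66372214), stood at 21.58 FPKM with DAC and 17.02 FPKM untreated in HCC1937. That is 1.27-fold, with an interval of 1.16 to 1.39, and the log2 difference was 0.33 as deposited, 0.12 under median-of-ratios and 0.029 under upper-quartile scaling. In THP-1 it stood at 7.38 FPKM with DAC and 6.83 FPKM untreated, and the interval of 0.929 to 1.26 includes no difference. By FPKM as deposited, the order of the 2 carriers was opposite in the 2 lines. SLC29A1 was at 0.879 of the SLC29A2 level in the DAC library of HCC1937 and at 0.501 of it in the untreated library, with counting intervals of 0.813 to 0.950 and 0.453 to 0.554. In THP-1 the ratio was 11.7 with DAC and 11.3 untreated, and with all-exon lengths for all libraries it was 6.67 and 6.46, above 1 either way. Those lengths leave the HCC1937 ratios unchanged. SLC29A1 has 4408 bases over all exons and 2326 in its longest RefSeq transcript, and SLC29A2 has 2720 and 2514. Estimated reads in DAC HCC1937 were 1563 for SLC29A1 and 1098 for SLC29A2, so their order there depends on the lengths used. An antisense gene, AP001107.9, shares 10.3% of the exon bases of SLC29A2 and was at 0.48 FPKM with DAC and 0.57 FPKM untreated in HCC1937.

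The bases before the transcript starts of SLC29A1 are shown because it was the member called as deposited. Every CpG site is in capitals, whatever its methylation. Shown are the 250 bases before each of the 2 RefSeq starts of the gene (GRCh38.p14).
SLC29A1 upstream start, chr6:44219365-44219614, plus strand: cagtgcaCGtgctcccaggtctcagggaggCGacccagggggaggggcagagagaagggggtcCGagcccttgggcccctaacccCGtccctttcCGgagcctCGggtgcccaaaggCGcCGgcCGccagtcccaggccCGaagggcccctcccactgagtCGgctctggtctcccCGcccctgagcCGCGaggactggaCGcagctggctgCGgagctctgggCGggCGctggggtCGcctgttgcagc
SLC29A1 downstream start, chr6:44223345-44223594, plus strand: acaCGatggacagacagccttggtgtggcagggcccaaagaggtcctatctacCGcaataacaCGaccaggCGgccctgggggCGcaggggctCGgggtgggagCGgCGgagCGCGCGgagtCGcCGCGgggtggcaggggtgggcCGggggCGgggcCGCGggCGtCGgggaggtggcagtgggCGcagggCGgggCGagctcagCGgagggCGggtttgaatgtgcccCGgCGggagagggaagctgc
The upstream start has 19 CpG sites in these bases and the downstream start 27. Over the full windows, which run to 50 bases past the start, the counts were 27 and 34, against a median of 14 and quartiles of 4 and 28 over 35116 windows of all genes. Methylation was not measured in these samples.

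**Figure D1:**
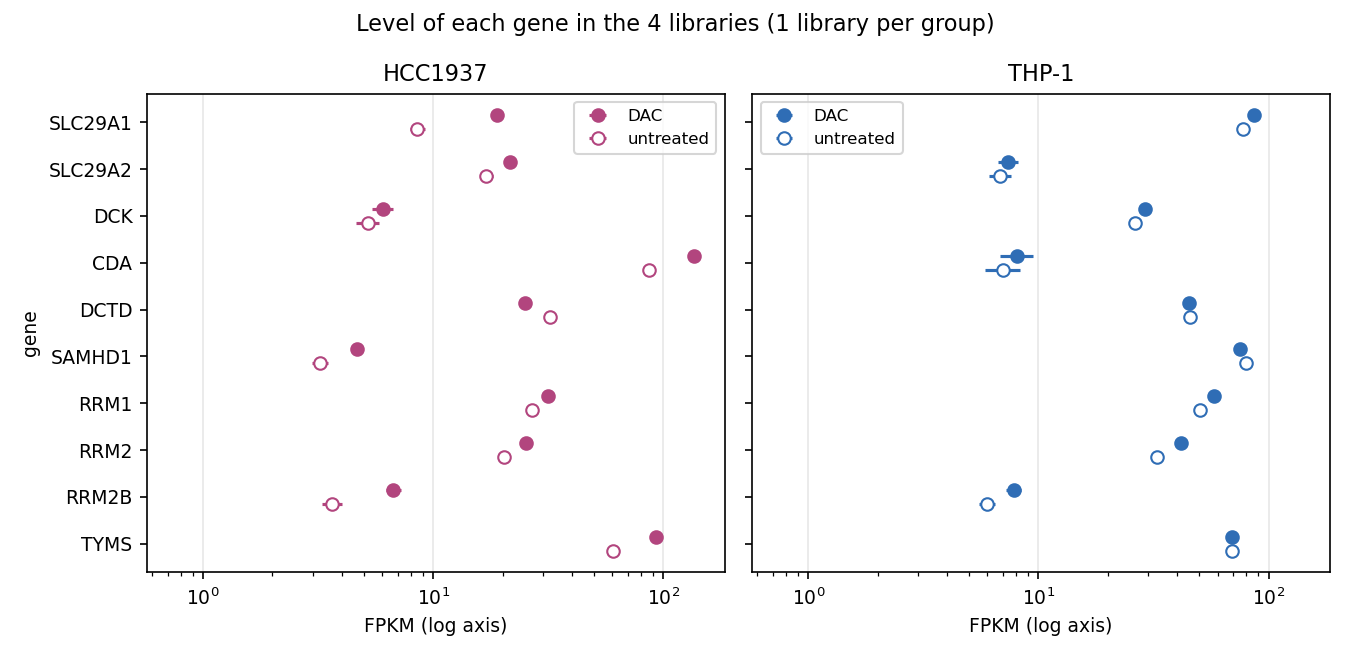
FPKM (horizontal log axis) of the 10 genes in HCC1937 (left) and THP-1 (right), with DAC as filled and untreated as open points and bars for 95% counting intervals. CDA and TYMS are the highest of the set in both HCC1937 libraries, while SLC29A1 and SAMHD1 are the highest in both THP-1 libraries. Values are as deposited and rest on a different set of exon lengths in each line.

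The order of DCK and CDA was opposite in the 2 lines, with and without DAC. DCK, the kinase that adds the first phosphate to decitabine (ENSG00000156136.9, chr4:70992538-71030914), stood at 6.04 FPKM in the DAC library and 5.20 FPKM in the untreated library of HCC1937. The interval of their ratio, 0.996 to 1.36, includes no difference. Its log2 difference of 0.18 was close to that of the median kept gene, 0.19, and under upper-quartile scaling it was -0.08. Its level in THP-1 was 28.97 FPKM with DAC and 26.21 FPKM untreated, 1.11-fold with an interval of 1.03 to 1.19. DCK shares 6.17% of its exon bases with MOB1B on the same strand.

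CDA, the deaminase that turns decitabine into an inactive uridine analogue (ENSG00000158825.5, chr1:20588948-20618908), was the highest of the 10 genes in HCC1937. It stood at 136.3 FPKM in the DAC library and 86.19 FPKM in the untreated library, above 97.8% and 95.4% of the genes with at least 1 FPKM. The ratio was 1.58, with an interval of 1.48 to 1.69, and the log2 difference of 0.66 fell short of the call and was 0.44 under median-of-ratios and 0.35 under upper-quartile scaling. THP-1 had 8.07 FPKM with DAC and 7.02 FPKM untreated, on about 152 and 132 reads, and the interval of 0.901 to 1.46 includes no difference. The CDA level of the untreated lines differed 12.3-fold, HCC1937 over THP-1, and both libraries of HCC1937 lay above both of THP-1.

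DCTD, the deaminase of deoxycytidine monophosphate, which also acts on the phosphorylated drug (ENSG00000129187.14, chr4:182890060-182917936), was the only member lower with DAC in HCC1937, joined by DCK and RRM1 under upper-quartile scaling. It stood at 24.94 FPKM in the DAC library and 32.16 FPKM in the untreated library, a ratio of 0.775 with an interval of 0.726 to 0.827. The log2 difference of -0.35 was not called, and it was -0.56 under median-of-ratios and -0.66 under upper-quartile scaling. A more negative difference was seen in 12.3% of kept genes. In THP-1 it stood at 44.98 FPKM with DAC and 45.49 FPKM untreated, with an interval of 0.925 to 1.06.

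Ratios of FPKM within a library do not depend on how libraries are scaled to each other. CDA was at 22.6 times the DCK level in the DAC library of HCC1937 and at 16.6 times in the untreated library. Their counting intervals, 20.2 to 25.3 and 14.7 to 18.8, do not overlap. In THP-1, CDA was at 0.279 of the DCK level with DAC and 0.268 untreated, with overlapping intervals of 0.234 to 0.329 and 0.223 to 0.321. DCK was therefore the lower of the pair in both HCC1937 libraries and the higher in both THP-1 libraries. DCK stood at 0.242 of the DCTD level with DAC and 0.162 untreated in HCC1937, with intervals of 0.215 to 0.271 and 0.143 to 0.182 that do not overlap. The same ratio was 0.644 and 0.576 in DAC and untreated THP-1, or 0.953 and 0.852 with the same exon lengths for all libraries.

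**Figure D2:**
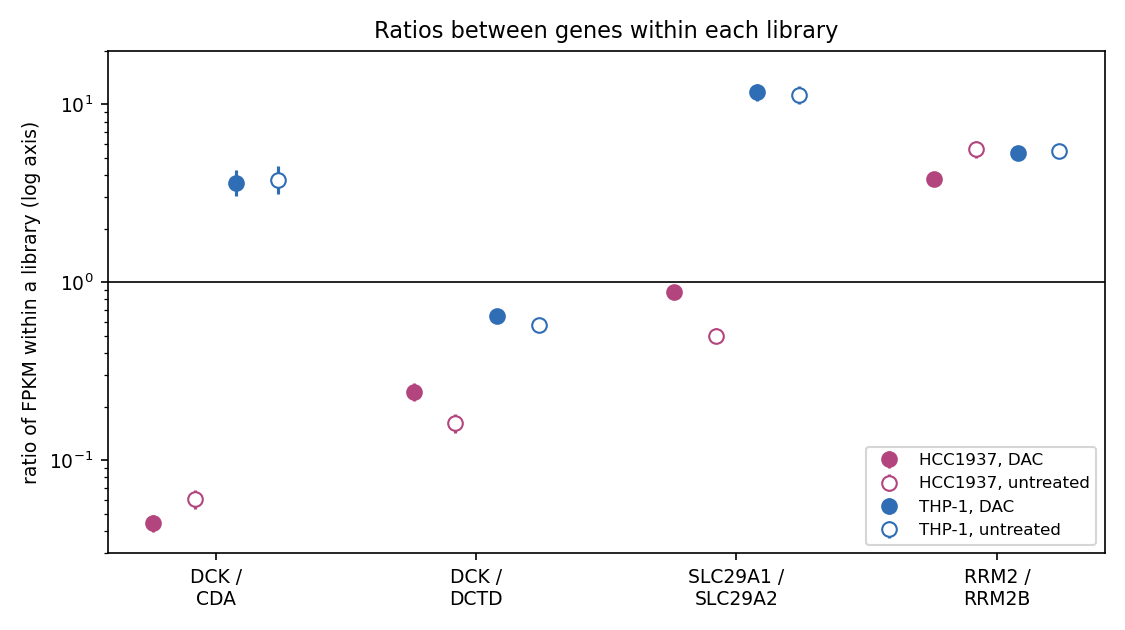
FPKM of a gene over that of another in the same library (vertical log axis) for 4 pairs, with DAC as filled and untreated as open points, and bars for 95% counting intervals. DCK over CDA lies near 0.0443 and 0.0603 in DAC and untreated HCC1937 and at 3.59 and 3.73 in DAC and untreated THP-1, and DAC points of THP-1 stay close to the untreated ones.

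Promoter bases of CDA, DCK and SAMHD1 are shown because, with SLC29A1, these genes had the largest differences in FPKM between the untreated lines. Each is the 250 bases before the RefSeq start (GRCh38.p14), 5′ to 3′ on the gene's strand, with CpG sites in capitals.
CDA, chr1:20588847-20589096, plus strand: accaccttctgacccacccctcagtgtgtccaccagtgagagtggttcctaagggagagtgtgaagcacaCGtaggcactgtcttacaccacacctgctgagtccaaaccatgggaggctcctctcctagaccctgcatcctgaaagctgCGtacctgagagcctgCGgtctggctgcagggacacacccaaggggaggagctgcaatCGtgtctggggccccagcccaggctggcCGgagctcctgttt
DCK, chr4:70993399-70993648, plus strand: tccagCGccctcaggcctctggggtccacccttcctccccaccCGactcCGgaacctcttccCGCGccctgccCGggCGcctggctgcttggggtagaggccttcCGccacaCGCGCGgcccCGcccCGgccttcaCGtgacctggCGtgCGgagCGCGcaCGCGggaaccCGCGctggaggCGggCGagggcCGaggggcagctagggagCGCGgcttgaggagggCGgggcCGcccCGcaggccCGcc
SAMHD1, chr20:36951709-36951958, minus strand: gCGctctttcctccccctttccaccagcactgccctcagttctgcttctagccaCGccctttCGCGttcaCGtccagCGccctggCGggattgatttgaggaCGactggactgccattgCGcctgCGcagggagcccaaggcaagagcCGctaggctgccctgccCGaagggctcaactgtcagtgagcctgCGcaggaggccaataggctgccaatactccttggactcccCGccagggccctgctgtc
CDA has 5 CpG sites in these bases, DCK 31 and SAMHD1 14. Over the full windows the counts were 8, 37 and 22, which is above 39.3%, 88.7% and 62.3% of all windows. Of the other members with a window, TYMS had 34, RRM1 21, RRM2 31 and 41 at its 2 starts, and DCTD 30 and 47. CDA was thus the only member below the median of 14 among the 8 members in the table, and SLC29A2 and RRM2B had no entry. The letters TTTCCCGC or TTTGGCGC, forms of the E2F motif, were searched on both strands, and 2.27% of all windows held either. They were found in the windows of CDA, DCK and TYMS.

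SAMHD1, a triphosphohydrolase that splits deoxynucleotides and is known to act on decitabine triphosphate (ENSG00000101347.9, chr20:36889773-36951901), was far lower in HCC1937 than in THP-1. It stood at 4.66 FPKM in the DAC library and 3.22 FPKM in the untreated library of HCC1937, where it was the lowest of the 10 genes in both by deposited FPKM. That rank depends on the lengths used, since SAMHD1 has 11261 bases over all exons and 5298 in its longest RefSeq transcript. The ratio of DAC over untreated was 1.45 with an interval of 1.31 to 1.60, and the log2 difference was 0.42, or 0.25 under median-of-ratios and 0.18 under upper-quartile scaling. Its level in THP-1 was 75.31 FPKM with DAC and 80.05 FPKM untreated, a ratio of 0.941 with an interval of 0.912 to 0.970. The direction was thus opposite in the 2 lines, by small amounts, and the difference between them was not tested.

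Levels between the lines are rough, since the deposited values of each line rest on a different set of gene lengths. For SAMHD1 the untreated ratio of HCC1937 over THP-1 was 0.0402 by FPKM and 0.0855 by estimated reads relative to library size, which use each line's own lengths. By the same 2 measures it was 0.198 and 0.236 for DCK, 0.110 and 0.209 for SLC29A1, and 2.49 and 2.70 for SLC29A2. For DCTD the 2 measures disagreed, at 0.707 and 1.24, as they did for TYMS, at 0.864 and 1.28, so no order of the lines is given for these. TLDC2 on the opposite strand shares 10.3% of the exon bases of SAMHD1 and stood at 0.82 FPKM or less in every library. SAMHD1 is known as an interferon-responsive gene in myeloid cells. Of 30 kept interferon-stimulated genes of HCC1937, 10 were at least 2-fold higher and 0 lower (median 0.68), and of 27 kept in THP-1, 3 were higher and 0 lower (median 0.59). Of all kept genes, 10.3% were higher and 1.44% lower in HCC1937, and 1.14% and 0.364% in THP-1. Under upper-quartile scaling 6 of the interferon-stimulated genes were higher in HCC1937. Their part in the SAMHD1 values was not tested.

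Ribonucleotide reductase makes deoxynucleotides from ribonucleotides, and its large subunit RRM1 (ENSG00000167325.14, chr11:4094707-4138876) pairs with RRM2 in dividing cells and with RRM2B, a p53 target, in resting or damaged cells. RRM1 stood at 31.42 FPKM with DAC and 26.71 FPKM untreated in HCC1937, 1.18-fold with an interval of 1.11 to 1.25, and its log2 difference of 0.23 turned to -0.07 under upper-quartile scaling. THP-1 had 57.79 FPKM with DAC and 50.49 FPKM untreated, 1.14-fold with an interval of 1.09 to 1.20. The HCC1937 difference was close to the median gene, with 46.5% of kept genes above it, and in THP-1 25.6% of kept genes were above that of RRM1.

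RRM2, the small subunit of S phase (ENSG00000171848.14, chr2:10120698-10131419), was higher with DAC than without it in both lines, by amounts that depended on scaling in HCC1937. It stood at 25.33 FPKM with DAC and 20.32 FPKM untreated in HCC1937, 1.25-fold with an interval of 1.18 to 1.32. In THP-1 it stood at 41.68 FPKM with DAC and 32.84 FPKM untreated, 1.27-fold with an interval of 1.20 to 1.34. Its log2 difference in HCC1937 was 0.30 as deposited, 0.10 under median-of-ratios and 0.0059 under upper-quartile scaling, and in THP-1 it was 0.33, 0.26 and 0.28 in that order. In THP-1, 10.1% of kept genes had a larger difference, against 39.8% in HCC1937. AC007240.1, annotated as protein-coding, shares 20.2% of the exon bases of RRM2 on the same strand and is listed at 0 in both HCC1937 libraries.

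RRM2B, the small subunit used outside S phase (ENSG00000048392.11, chr8:102204502-102239118), had the second largest difference of the set in HCC1937. It stood at 6.70 FPKM with DAC and 3.63 FPKM untreated, 1.85-fold with an interval of 1.62 to 2.09, and at a log2 difference of 0.73 it was not called, nor at 0.56 under median-of-ratios or 0.48 under upper-quartile scaling. Its level in THP-1 was 7.80 FPKM with DAC and 5.99 FPKM untreated, 1.30-fold with an interval of 1.17 to 1.45. RRM2 was at 3.78 times the RRM2B level with DAC and 5.60 times untreated in HCC1937, with intervals of 3.47 to 4.12 and 5.01 to 6.26 that do not overlap. The same ratio in THP-1 was 5.34 with DAC and 5.48 untreated, with intervals that overlap. Of 24 kept p53 targets of HCC1937, 2 were at least 2-fold higher, CDKN1A and TP53I3, and 1 was lower, BBC3 (median 0.35). Of all kept genes there, 10.3% were at least 2-fold higher and 1.44% lower. CDKN1A was no longer called under median-of-ratios scaling, at 0.84, or upper-quartile scaling, at 0.74. Of 20 kept in THP-1, 0 were past 2-fold in either direction (median 0.16). Whether the RRM2B values go with these was not tested.

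TYMS, thymidylate synthase, makes dTMP from the dUMP that DCTD supplies (ENSG00000176890.15, chr18:657604-673578). It stood at 92.48 FPKM with DAC and 60.19 FPKM untreated in HCC1937, 1.54-fold with an interval of 1.46 to 1.61, and the log2 difference of 0.61, which was 0.40 under median-of-ratios and 0.30 under upper-quartile scaling, was not called. THP-1 had 69.56 FPKM with DAC and 69.66 FPKM untreated, a ratio of 0.999 with an interval of 0.941 to 1.06. ENOSF1 on the opposite strand shares 39.1% of the exon bases of TYMS, and TYMSOS, also opposite, shares 7.41%. Strand use in counting is not given in the sources used here, so reads of TYMS and ENOSF1 in that stretch cannot be told apart. ENOSF1 stood at 3.19 FPKM with DAC and 2.30 FPKM untreated in HCC1937, far below TYMS, and at 35.35 and 33.41 FPKM in DAC and untreated THP-1.

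**Figure D3:**
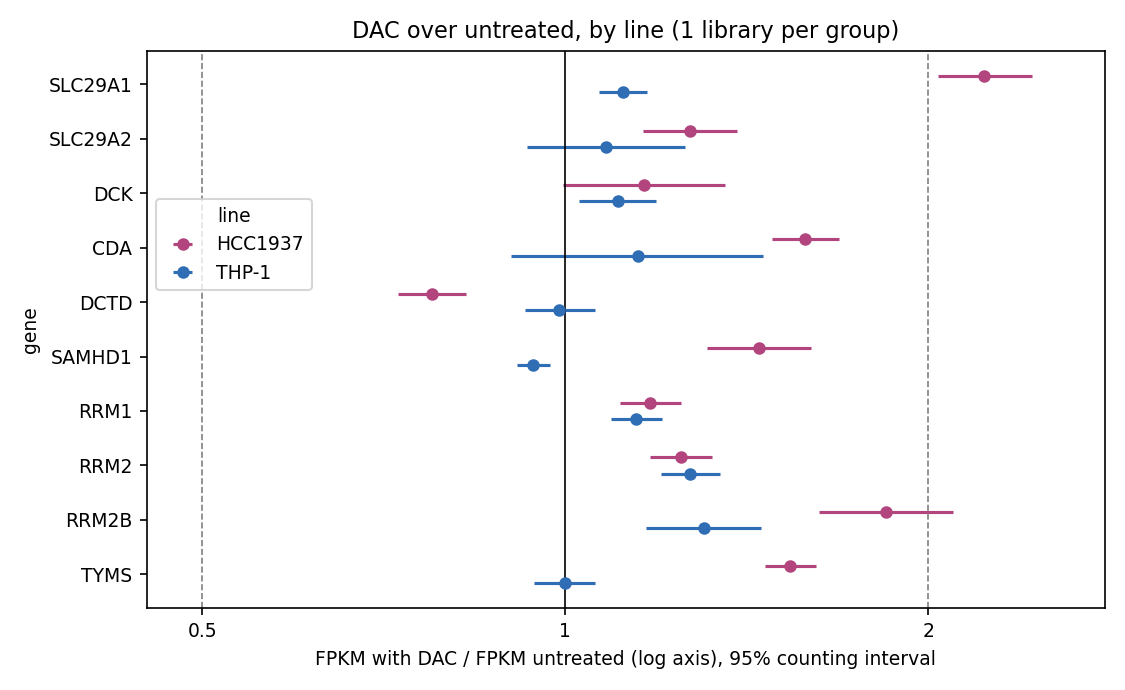
FPKM with DAC over FPKM untreated (horizontal log axis) for the 10 genes in each line, with bars for 95% counting intervals and dashed lines at 2-fold. SLC29A1 of HCC1937 is the only point past a dashed line, and the THP-1 points lie between 0.941 and 1.30.

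As a set, 9 of the 10 genes were above 0 in HCC1937 and 7 in THP-1, where 66.2% and 65.0% of all kept genes were above 0. Under upper-quartile scaling 7 of the 10 were above 0 in each line. The share of all kept genes above 0 was not counted there, and their median was -0.08 in HCC1937 and 0.02 in THP-1. As deposited, the median difference of the 10 genes was 0.37 in HCC1937 and 0.15 in THP-1, against medians of 0.19 and 0.07 for all kept genes. In HCC1937 it was 0.19 under median-of-ratios and 0.10 under upper-quartile scaling, where the medians of all kept genes were 0.0011 and -0.08. As deposited, SLC29A1, RRM2B, CDA and TYMS were at least 1.5-fold higher in HCC1937, 4 of 10 against 21.9% of kept genes. At that size 0 were lower, against 5.91%. Both counts depended on how the HCC1937 libraries were scaled. Shares of all kept genes at 1.5-fold were not counted under the scalings, so 21.9% and 5.91% are a background for values as deposited only. At 2-fold, all kept genes had 1452 higher and 202 lower as deposited. These were 1158 and 365 by median of ratios, and 1063 and 487 by upper quartile. By median of ratios only SLC29A1 stayed past 1.5-fold, at 0.87, with RRM2B at 0.56, CDA at 0.44 and TYMS at 0.40. By upper quartile SLC29A1, at 0.78, was again the only one higher, with RRM2B at 0.48, CDA at 0.35 and TYMS at 0.30. DCTD, at -0.66, was then past 1.5-fold lower. In THP-1, 0 were past 1.5-fold in either direction, against 3.3% of kept genes higher and 1.0% lower. At 2-fold, 0 members were lower in HCC1937 (1.44% of kept genes), and in THP-1 0 were higher (1.14% of 12075 kept genes) or lower (0.364%). All 10 passed the filter in both libraries of each line.

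Over both lines together, limma with line as a block called 0 of 13984 genes at an adjusted p of 0.05, so 0.0% were called in either direction, and 0 members. The error of that fit comes from how far HCC1937 and THP-1 disagree, which also holds the effect of dose and time. limma draws the error of each gene toward a trend over all genes. An SE below is therefore not the disagreement of the lines for that gene alone. At an unadjusted threshold of 0.05 there were 565 genes (4.04%), and RRM2B was the only member among them. RRM2B had a log2 difference of 0.53 (SE 0.17), above 0 in both lines, and its adjusted p in limma was 0.695. SLC29A1 had a log2 difference of 0.61 (SE 0.27) and the same adjusted p of 0.695. Adjusted p-values of the other members ran from 0.695 to 0.767 in limma.

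By FPKM as deposited, which rests on a different set of exon lengths in each line, the order of levels differed between the lines. The part of lengths in that difference was not tested. Within each line the order was much alike with and without DAC. In the DAC library of HCC1937 it ran CDA, TYMS, RRM1, RRM2, DCTD, SLC29A2, SLC29A1, RRM2B, DCK, SAMHD1. Counting intervals overlapped there between RRM2 and DCTD and between RRM2B and DCK. In untreated HCC1937 DCTD came right after TYMS and RRM2B came after DCK, and only RRM2B and SAMHD1 overlapped among neighbours. In the DAC library of THP-1 the order was SLC29A1, SAMHD1, TYMS, RRM1, DCTD, RRM2, DCK, CDA, RRM2B, SLC29A2, with overlaps between DCTD and RRM2 and between neighbours among the 3 lowest. In untreated THP-1 SAMHD1 stood before SLC29A1 and SLC29A2 before RRM2B, with overlapping intervals in both of these pairs and between CDA and SLC29A2.

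The other genes of nucleoside and nucleotide handling had few calls. Their counts are to be read against all kept genes, of which 10.3% were called higher and 1.44% lower in HCC1937, and 1.14% and 0.364% in THP-1. Of 7 further transporters that carry nucleosides or related drugs, 4 were kept in HCC1937 and 2 in THP-1, and 0 were called on the log2(FPKM + 1) scale. SLC29A4, a monoamine and adenosine carrier, stood at 3.55 FPKM with DAC and 1.72 FPKM untreated in HCC1937, and at 9.49 and 6.08 FPKM in DAC and untreated THP-1. SLC28A3, a concentrative nucleoside carrier, stood at 0.58 FPKM with DAC and 1.05 FPKM untreated in HCC1937. Of 8 drug efflux pumps, 6 and 4 were kept and 0 were called, with ABCG2 at 1.45 FPKM with DAC and 0.68 FPKM untreated in HCC1937.

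Nucleoside kinases other than DCK, which add a first phosphate, and nucleotide kinases, which add the later ones, were kept in full, 20 in each line. Of these 0 were called, and the median was 0.02 in both lines, below that of all kept genes, and -0.19 in HCC1937 under median-of-ratios scaling. CMPK2, a mitochondrial kinase that interferon induces, stood at 3.10 FPKM with DAC and 1.27 FPKM untreated in HCC1937, the highest difference of the list at 0.85. Nucleotidases and related phosphatases had 0 called among 12 kept in HCC1937 and 13 in THP-1.

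The list of pyrimidine and purine breakdown held 2 called enzymes in HCC1937, both of pyrimidine breakdown and in opposite directions. TYMP, which splits thymidine, stood at 32.91 FPKM with DAC and 10.26 FPKM untreated, 3.21-fold with an interval of 2.94 to 3.51. DPYD, the rate-limiting enzyme of uracil breakdown, stood at 3.31 FPKM with DAC and 9.93 FPKM untreated, a ratio of 0.333 with an interval of 0.298 to 0.371. These were 1 higher and 1 lower of 10 kept genes of pyrimidine or purine breakdown, against 10.3% and 1.44% of all kept genes. In THP-1 0 of 8 were called. In THP-1, TYMP stood at 104.51 FPKM with DAC and 81.60 FPKM untreated, and DPYD at 6.48 and 6.02 FPKM in DAC and untreated cells.

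De novo pyrimidine synthesis had 0 of 5 and de novo purine synthesis 0 of 15 called in HCC1937, and 0 of 5 and 0 of 13 in THP-1. CTPS1, which makes CTP, stood at 6.21 FPKM with DAC and 4.83 FPKM untreated in HCC1937, and at 119.3 and 99.31 FPKM in DAC and untreated THP-1. Of 13 kept folate cycle genes of HCC1937, 1 was higher and 0 lower, against 10.3% and 1.44% of all kept genes. The higher gene was FOLR1, a folate receptor, at 20.31 FPKM with DAC and 1.60 FPKM untreated, while 0 of 13 were called in THP-1. SHMT2, the mitochondrial serine hydroxymethyltransferase, stood at 150.07 FPKM with DAC and 205.43 FPKM untreated in THP-1, a log2 difference of -0.45.

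DNA replication genes, which are made in S phase like RRM1, RRM2 and TYMS, had a median of 0.40 in HCC1937, with 0 past 2-fold. Of 30, 29 were above 0, against 66.2% of all kept genes. Under upper-quartile scaling 21 of 30 were above 0, where the median of all kept genes was -0.08. CDC6 and RFC3, a licensing factor and a clamp loader subunit, were at the top of the replication list, at 0.95 and 0.87. In THP-1 the median of the list was 0.07, equal to that of all kept genes, with 0 past 2-fold. There 25 of 30 were above 0, against 65.0% of all kept genes. Under median-of-ratios scaling 14 of 30 were above 0, where the median of all kept genes was -0.00012. G2/M genes had medians of 0.13 in HCC1937, which turned to -0.07 when scaled by median of ratios and -0.17 by upper quartile, and -0.04 in THP-1, with 0 of 24 called in each. The summed level of the replication list was 1245 FPKM with DAC and 940 FPKM untreated in HCC1937, and 1874 and 1835 FPKM in DAC and untreated THP-1. Its part in the RRM1, RRM2 and TYMS values was not tested.

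**Figure D4:**
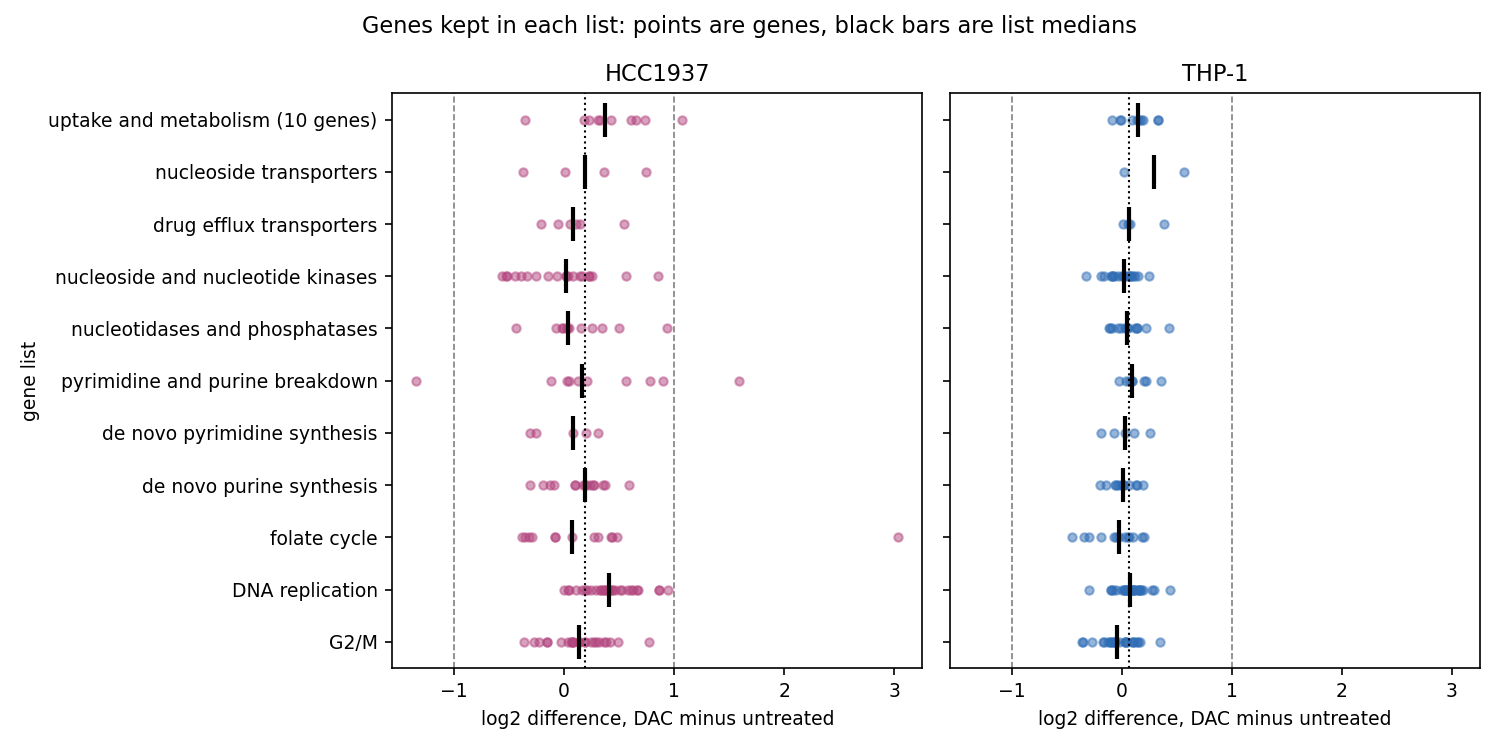
Log2 difference on log2(FPKM + 1), DAC minus untreated, of every kept gene in 11 lists (points) in HCC1937 (left) and THP-1 (right), with black bars for list medians, a dotted line for the median of all kept genes and dashed lines at 2-fold. FOLR1, TYMP, DPYD and SLC29A1 are the points past 2-fold in HCC1937, and no point is past it in THP-1.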

How the data were processed

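RNA was sequenced from 4 cultures, and per the labels' protocols TruSeq libraries were prepared from mRNA. The submitters' processing notes name STAR, HTSeq, cutadapt and FastQC and the build hg38, with versions, annotation and strand setting not given in the sources used here. The deposited tables state no unit, and their values behave as FPKM. Value times exon length (GENCODE 29) of short genes was whole, within 0.1 read, in 92.5% to 94.1% of cases at the depth chosen to maximise that share. For genes of 600 to 2500 bases with under 6 reads, within 0.15 read, the share was 84.1% and 84.4% in DAC and untreated HCC1937, and 54.8% and 50.3% (all exons) or 67.7% and 67.9% (RefSeq) in DAC and untreated THP-1, so read-based intervals are less certain in THP-1. The sum over genes was 98.3% and 98.7% of the total that FPKM implies in DAC and untreated HCC1937. In THP-1 that sum was 184% and 183% with all exons and 105% with the longest RefSeq transcript, which was used to estimate reads there. THP-1 has no value in 37039 of 60612 rows, and 1079 rows of repeated symbols were left out.

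The size rule, intervals and ratios were computed in Python 3.11.15 with numpy 2.4.6, pandas 2.3.3 and scipy 1.17.1. The fit over both lines used limma 3.58.1 (R 4.3.3) on log2(FPKM + 1), with an intensity trend and Benjamini-Hochberg adjustment, over genes at 1 FPKM in any library. The size rule and the limma fit were also run on simulated data. Both lines were given the same changes there, so that run does not bear on lines that differ in their response. Alternatives were 2 scalings, other pseudocounts, filters and thresholds, and limma without block or trend. Members, lists and rules were chosen with earlier results of these data known. Named beside the members were list genes called at 2-fold or with the largest differences of a list. Promoter sequences are from RefSeq (GRCh38.p14). Some genes are not reported here.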

Additional observations from a re-analysis of the deposited data

Results flagged for a closer look

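SAMHD1 and TYMS were each above 0 in HCC1937 and below 0 in THP-1. The log2 difference of SAMHD1 in HCC1937 minus that in THP-1 was 0.51, and that of TYMS was 0.61. The difference was not tested, since each line has 1 pair of libraries and dose and time differ with the line. For TYMS the THP-1 value, -0.0020, is within counting error of 0.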

How the results depend on the processing

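The call of SLC29A1 in HCC1937 depended on scaling and pseudocount. Members at least 2-fold higher there were 0 under median-of-ratios scaling, 0 under upper-quartile scaling and 0 with a pseudocount of 10, 1 with a pseudocount of 0.1 or either other filter, and 4 at a size of 1.5-fold. Members at least 2-fold lower stayed at 0 in HCC1937 and in THP-1 under all of these. Member differences kept their sign except DCK and RRM1 in HCC1937 under upper-quartile scaling, at -0.08 and -0.07. For all kept genes of HCC1937 (1452 higher, 202 lower), the lower count was 365 under median-of-ratios and 487 under upper-quartile scaling, so that higher genes were 76.0% and 68.6% of the called, against 87.8%. The median of all kept genes was 0.0011 and -0.08 under these scalings. Higher and lower counts were 2323 and 383 with a pseudocount of 0.1, 131 and 31 with 10, 550 and 108 at 5 FPKM, and 3084 and 831 at 1.5-fold. In THP-1 (138 and 44) they were 297 and 74, 3 and 0, 42 and 4, and 398 and 121 in that order.

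All-exon lengths for all libraries leave the ratios of HCC1937 unchanged, and RefSeq lengths were not tried there. With all-exon lengths, DCK over CDA was 3.02 in DAC THP-1. DCK over DCTD was 0.953 and 0.852, SLC29A1 over SLC29A2 6.67 and 6.46, and RRM2 over RRM2B 3.88 and 3.98 in DAC and untreated THP-1. limma called 0 genes under each of its 8 alternatives, including 1 FPKM in each line, which was added after seeing the data. The lowest adjusted p of a member in limma ran from 0.642 to 1.0 over the settings. No paired analysis was possible because each group has 1 library, beyond line as a block in limma. Depth limits CDA in THP-1, at about 152 reads with DAC and 132 untreated.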
